A study of Homo sapiens with 4 samples.

Results

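The autophagy and lysosome genes described here are a list of 54 gene symbols that covers the transcription factors of lysosome biogenesis, the enzymes and membrane proteins of the lysosome, and the core machinery that builds autophagosomes. Members were taken by name from the deposited expression table, which lists 55764 gene names. Of the 54 symbols 52 were listed, and 51 reached the mean level that a test required, out of 14306 genes tested in all. The libraries come from TE5, a human cell line of oesophageal squamous cell carcinoma, and were made by bulk RNA sequencing. The ETS1 group (n = 2) stably carried a lentiviral vector that expresses ETS1, an ETS-family transcription factor, from the CMV promoter, and the control group (n = 2) carried the backbone of that vector and is labelled WT. Both groups had thus been infected, in the same parental line and with the same protocol, and a constitutive viral promoter limits the ETS1 group as a model of the endogenous gene. The labels do not say whether libraries 1 and 2 of a group are separate infections or cultures, so the p-values measure the spread between these libraries, which may be technical.

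Autophagy encloses cytoplasm in a growing membrane that closes into an autophagosome, which then fuses with lysosomes. The ULK1 kinase complex starts this, a class III phosphatidylinositol 3-kinase complex marks the membrane, and ubiquitin-like conjugation attaches ATG8 proteins such as LC3 to it, where cargo receptors dock. Lysosomes digest the content with acid hydrolases, kept acidic by the V-ATPase proton pump, and the MiT/TFE factors TFEB, TFE3 and MITF activate many lysosomal and autophagy genes through a short element known as CLEAR.

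ETS1 itself, the check of the labels, was at 0.491 and 0.509 FPKM (sequenced fragments relative to gene length and library size) in the controls and 1.84 and 1.87 FPKM in the ETS1 libraries (limma adjusted p 0.000704). Sequencing was deeper with ETS1, at 57269984 and 56502875 recovered reads against 40356723 and 44119604. The squamous markers KRT5, KRT14, TP63 and KRT6A were listed at 0 FPKM in both controls and at no more than 0.0165 FPKM in the ETS1 libraries. Of the simple epithelial markers KRT8 was higher with ETS1, from 3.91 and 3.87 FPKM to 6.48 and 6.59 FPKM (limma adjusted p 0.000591), and KRT18 was lower, from 10.2 and 10.5 FPKM to 8.35 and 8.29 FPKM (limma adjusted p 0.00223). EPCAM was not called (1.37 and 1.36 against 0.915 and 1.12 FPKM, limma adjusted p 0.0525), and CDH1, under the filter, was at 0.571 and 0.567 FPKM in the controls and 1.08 and 0.916 FPKM with ETS1. Of the markers of other cell types, 19 of the 22 listed stayed under 1 FPKM in every library, and endothelial markers summed to no more than 0.127 FPKM. The fibroblast list summed to 2.20 to 2.35 FPKM in the controls and 3.17 to 3.28 FPKM with ETS1, almost all COL1A1. For leukocyte markers the sums were 1.20 to 1.43 and 1.95 to 2.07 FPKM, and for melanocyte markers 1.21 to 1.37 and 1.69 to 1.97 FPKM. These sums were higher with ETS1 and so moved with the groups compared, and their part in the results was not tested. In bulk RNA, more cells of a type and more RNA per cell cannot be told apart.

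Of the 51 members tested, 18 were higher and 9 lower in the ETS1 libraries and 24 were not called, by limma on log2(FPKM + 1) at a Benjamini-Hochberg adjusted p under 0.05 over all genes tested. The 27 called members are 52.9% of the list, beside 59.1% of all genes tested. In each direction the background was 30.7% of genes higher and 28.4% lower, against 35.3% and 17.6% of the members. Thus the list as a whole was called about as often as genes in general, and what follows is about which members moved. The median log2 change of the members was 0.060, against 0.016 for all genes tested, but it was 0.037 without control library 1 and 0.0014 with the median change of the neighbouring genes on the chromosome removed. The groups did not overlap for 46 members (90.2%), beside 82.0% of all genes. Only 10 members (19.6%) were called with an absolute log2 change of at least 0.3, and 29.8% of all genes were. The count of lower members was smaller in each fit that left out a library. Over all genes tested, the counts of higher and of lower genes were smaller in those fits too. All changes are on the log2(FPKM + 1) scale, which understates the change of genes with low FPKM, and by limma's voom on recovered reads, an alternative chosen after seeing the data, ETS1 (0.93) was at 1.89, MAP1LC3C (0.76) at 1.57 and ATP6V1C2 (-0.46) at -0.84. With 2 libraries against 2 an exact two-sided permutation test cannot go below 0.333.

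**Figure D1:**
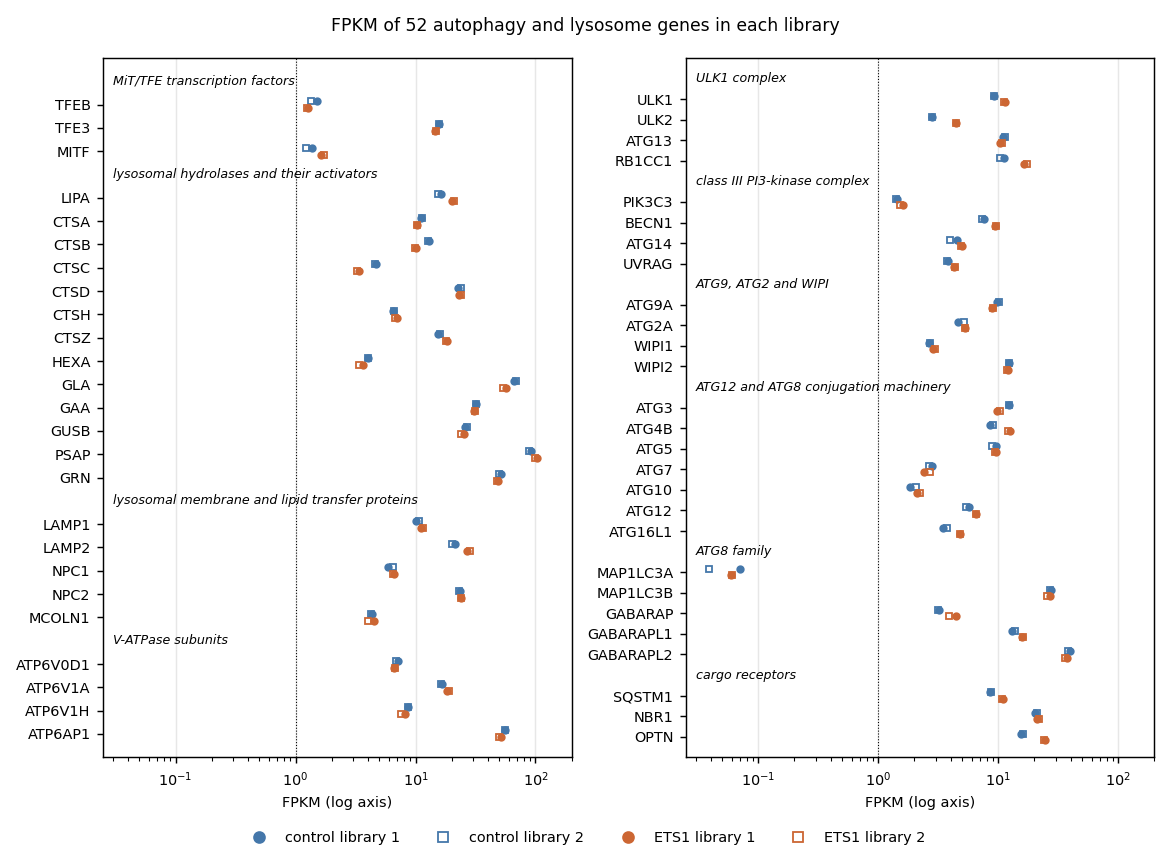
FPKM of the 52 listed members on a log axis, grouped by role, with filled circles for library 1 and open squares for library 2 of the control (blue) and ETS1 (orange) groups. The dotted line marks 1 FPKM. MAP1LC3A lies far under it at 0.0386 to 0.0703 FPKM, and for most members the 4 points lie close together.

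**Figure D2:**
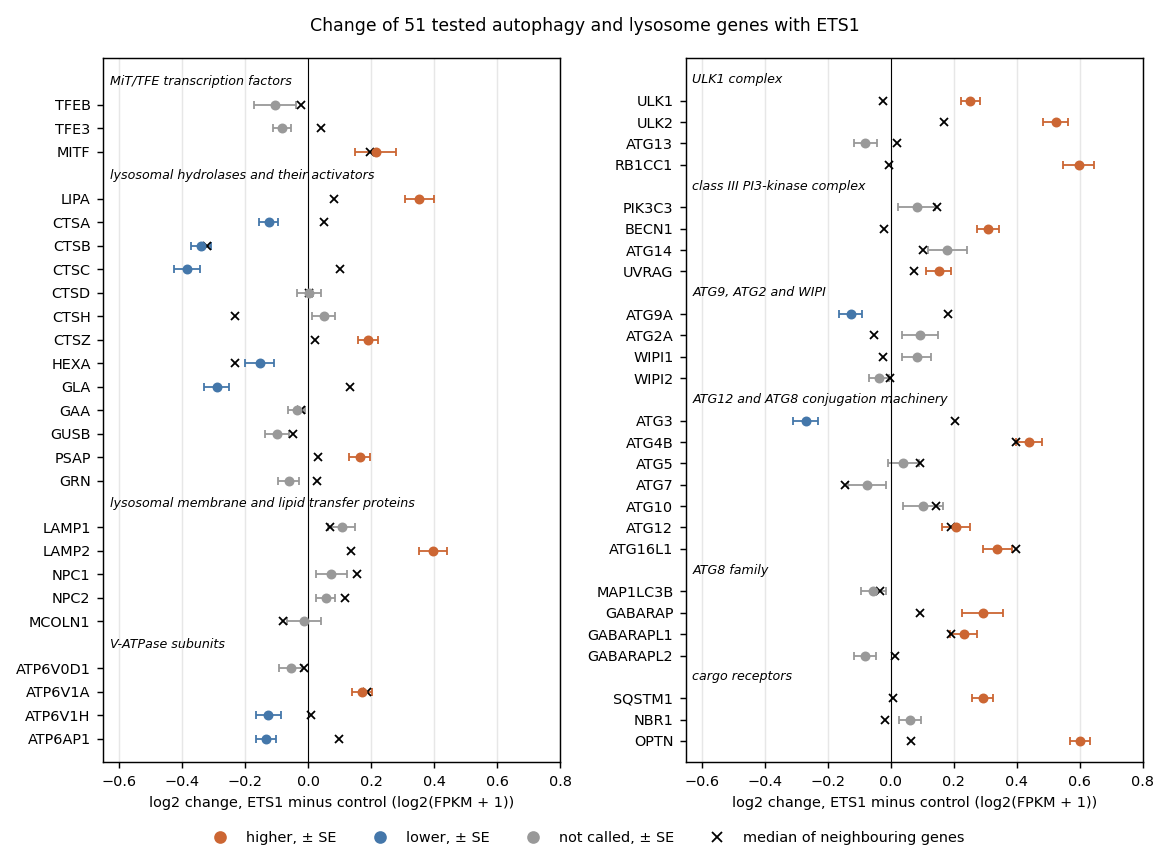
Log2 change (ETS1 minus control, on log2(FPKM + 1)) of the 51 tested members with its standard error, coloured by whether limma called the gene higher, lower or neither. Crosses give the median change of the neighbouring genes on the chromosome. The OPTN, RB1CC1 and ULK2 points stand farthest to the right, from 0.52 to 0.60, and CTSC and CTSB farthest to the left.

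Of the 3 MiT/TFE factors, MITF was called higher and TFEB and TFE3 were not called. TFEB, a master regulator of lysosome genes (chromosome 6, 41683978 to 41736259, minus strand, GENCODE 29 on GRCh38, as for all positions here), was at 1.52 and 1.34 FPKM in the controls and 1.27 and 1.25 FPKM with ETS1. The ETS1 values of TFEB lay under its controls, but the gap between the groups was smaller than that between the controls, and the log2 change of -0.11 ± 0.0667 (SE) had a limma adjusted p of 0.228. TFE3, its close relative and the most abundant of the 3 per length (chromosome X, 49028726 to 49043486, minus strand), was at 15.6 and 15.6 FPKM in the controls and 14.6 and 14.8 FPKM with ETS1. Its groups did not overlap, yet the change of -0.08 ± 0.0285 missed the threshold with a limma adjusted p of 0.0595. TFE3 was called lower under median-of-ratios scaling (-0.10, limma adjusted p 0.0333). MITF, better known from melanocytes (chromosome 3, 69739435 to 69968337, plus strand), went from 1.39 and 1.23 FPKM to 1.63 and 1.73 FPKM and was called higher, by 0.21 ± 0.0649 (limma adjusted p 0.0399). The MITF call was lost without control library 2, ETS1 library 1 or ETS1 library 2, with limma adjusted p-values from 0.1002 to 0.173. By voom on recovered reads, without the pseudocount, the MITF change was 0.36. Of the 4 melanocyte markers, PMEL was called higher, from 0.737 and 0.878 FPKM to 1.40 and 1.18 FPKM (limma adjusted p 0.0222). The others were under the filter. MLANA was at 0.0401 and 0.0294 FPKM in the controls and 0.102 and 0.103 FPKM with ETS1, DCT at 0.432 and 0.449 against 0.467 and 0.406 FPKM, and TYR was listed at 0 in all libraries but control library 2 (0.0150 FPKM). What part cells with melanocyte markers have in the MITF change was not tested.

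The promoters of the members were searched for the element these factors bind. Windows before RefSeq start sites were at hand for 43 of the 52 listed members, and none for CTSB, HEXA, PSAP, LAMP2, ATP6V1A, ATP6V1H, RB1CC1, UVRAG and MAP1LC3A. In the 250 bases before a start (any start, where a gene has several), on both strands, the CLEAR core GTCACGTG was found in 8 members (18.6%), against 2.66% of 27305 genes with such a window and 4.94% of the tested genes among them. The E-box CACGTG, which lies within the CLEAR core, was in the same 8 members, against 7.73% of all genes and 11.5% of tested genes. An ETS motif, CCGGAAG, was in 7 members (16.3%), against 10.2% of all genes and 19.4% of tested genes. The CLEAR core was before ATG14, ATG3, ATP6V0D1, CTSA, CTSD, GAA, LAMP1 and MCOLN1. Of these 8, ATG3 and CTSA were called lower, 6 were not called and 0 were called higher, while of all 43 members with a window 13 were called higher, 6 lower and 24 neither. Of the 9 members without a window, 5 were called higher (PSAP, LAMP2, ATP6V1A, RB1CC1 and UVRAG) and 3 lower (CTSB, HEXA and ATP6V1H), so the CLEAR count covers only part of the list. The 0 also depends on the fit, since voom on recovered reads called LAMP1 (0.12, limma adjusted p 0.0388) and ATG14 (0.22, limma adjusted p 0.0132) higher, and ATG14 was called without control library 1. The ETS motif was before ATG16L1 and BECN1, both called higher, before ATG3, called lower, and before ATG5, ATP6V0D1, GABARAPL2 and PIK3C3, which were not called. A match of letters is a description and not a site of binding. The sequences shown are windows of 250 bases for LAMP1, with the most CLEAR places, for MCOLN1 and for BECN1, the called member whose ETS window held no annotated UTR, and short stretches around the places of 3 called members (ATG3, CTSA and ATG16L1), all chosen after the values were seen. They are read 5′ to 3′ on the strand of the gene, from RefSeq on GRCh38.p14, with the motif letters of either orientation in capitals. LAMP1 (chr13:113296989-113297238, plus strand) holds 5 separate CLEAR places and MCOLN1 (chr19:7522374-7522623, plus strand) holds 2. BECN1 (chr17:42823880-42824129, minus strand) holds 1 ETS place. CTSA holds 2 CLEAR places (chr20:45891281-45891308 and chr20:45891300-45891327 with the flanks shown, plus strand), ATG3 1 CLEAR and 1 ETS place (chr3:112561965-112561992 and chr3:112562019-112562048, minus strand) and ATG16L1 2 ETS places (chr2:233251539-233251565 and chr2:233251623-233251649, plus strand). The windows of BECN1, CTSA and ATG16L1 lie inside the genes as GENCODE 29 draws them, and the places of ATG3 inside or at the edge of its gene, since RefSeq gives a later start.
LAMP1: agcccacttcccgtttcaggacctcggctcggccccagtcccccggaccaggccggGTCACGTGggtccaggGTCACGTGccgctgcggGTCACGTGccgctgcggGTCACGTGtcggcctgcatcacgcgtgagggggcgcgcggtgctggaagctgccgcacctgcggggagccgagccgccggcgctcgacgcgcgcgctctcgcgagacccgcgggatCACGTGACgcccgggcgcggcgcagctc
MCOLN1: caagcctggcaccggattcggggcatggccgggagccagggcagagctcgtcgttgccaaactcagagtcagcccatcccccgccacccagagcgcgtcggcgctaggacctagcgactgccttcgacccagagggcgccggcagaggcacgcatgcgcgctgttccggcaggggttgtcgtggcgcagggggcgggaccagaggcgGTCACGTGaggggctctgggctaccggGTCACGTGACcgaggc
BECN1: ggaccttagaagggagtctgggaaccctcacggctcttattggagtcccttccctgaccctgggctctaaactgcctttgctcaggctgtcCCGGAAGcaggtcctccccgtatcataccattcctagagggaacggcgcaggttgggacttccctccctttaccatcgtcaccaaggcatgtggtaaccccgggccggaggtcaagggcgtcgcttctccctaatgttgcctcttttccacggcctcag
CTSA, first CLEAR place: gaggaagactGTCACGTGgcgccggagt
CTSA, other CLEAR place: cgccggagttCACGTGACtcgtacacat
ATG3, CLEAR place: cctttctcacGTCACGTGccgggagagt
ATG3, ETS place: cagtgttacgCTTCCGGAAGgaggggagaa
ATG16L1, first ETS place: gcagctgacgCTTCCGGctacaggctg
ATG16L1, other ETS place: gggggcgggtCTTCCGGccctctcgaa

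The ULK1 complex had the highest median of the groups. Of its 4 members, 3 rose with ETS1 and 1 was not called, with a median log2 change of 0.39. RB1CC1 encodes FIP200, the large scaffold of the complex (chromosome 8, 52622456 to 52745843, minus strand), and was at 11.1 and 10.4 FPKM in the controls and 16.2 and 17.3 FPKM in the ETS1 libraries. Every ETS1 value was well above every control, by a log2 change of 0.60 ± 0.0498 (limma adjusted p 0.00108). ULK2, a kinase that can stand in for ULK1 (chromosome 17, 19770829 to 19867936, minus strand), went from 2.79 and 2.79 FPKM to 4.46 and 4.43 FPKM. The replicates of ULK2 were almost level within each group and the groups far apart, with a change of 0.52 ± 0.0397 (limma adjusted p 0.000884). ULK1 (chromosome 12, 131894651 to 131923167, plus strand), the kinase that gives the complex its name, rose by less, from 9.25 and 9.25 FPKM to 11.3 and 11.1 FPKM, a change of 0.25 ± 0.0304 (limma adjusted p 0.00259). ATG13, the adaptor of the kinase, had a change of -0.08 (limma adjusted p 0.124). The ATG101 symbol, the partner of ATG13, was not listed, and under its older symbol C12orf44, named outside the list, the gene was at 2.96 and 3.02 FPKM in the controls and 2.83 and 3.02 FPKM with ETS1, with overlapping groups and a limma adjusted p of 0.690.

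In the class III PI3-kinase complex, 2 of 4 members were called higher and 0 lower. BECN1, the regulatory subunit Beclin 1 (chromosome 17, 42810134 to 42833350, minus strand), was at 7.61 and 7.36 FPKM in the controls and 9.43 and 9.60 FPKM with ETS1. All of the ETS1 values exceeded the controls, and the change was 0.31 ± 0.0347 (limma adjusted p 0.00212). BECN1 shares 17.1% of its exon bases with genes on the other strand (CNTD1 and PSME3), whose reads cannot be told apart if the counting did not use strand, which the sources used here do not state. UVRAG, the subunit of the endosomal form of the complex, was called higher by 0.15 ± 0.0390 (limma adjusted p 0.0246), but lost the call when any of the 4 libraries was left out, with limma adjusted p-values from 0.0563 to 0.139. The authors' deposited table gives UVRAG an adjusted p of 0.0853. ATG14, the subunit of the autophagy-specific form, was not called with 0.18 ± 0.0620 (limma adjusted p 0.0585), and among the fits that leave out a library it was called only without control library 1 (0.26, limma adjusted p 0.0149). Voom on recovered reads called it as well (limma adjusted p 0.0132). The catalytic subunit PIK3C3 was at 1.44 and 1.39 FPKM in the controls and 1.61 and 1.51 FPKM with ETS1, a change of 0.08 that was not called (limma adjusted p 0.275).

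Among the genes that supply lipid and membrane to the autophagosome, ATG9A alone was called. ATG9A, a lipid scramblase carried in vesicles, fell by 0.13 on the log2 scale (SE 0.0363, limma adjusted p 0.0337), and the call was lost without control library 2, ETS1 library 1 or ETS1 library 2 (limma adjusted p 0.105 to 0.163). The lipid transfer protein ATG2A (0.09) and the phosphoinositide readers WIPI1 (0.08) and WIPI2 (-0.04) had limma adjusted p-values of 0.214, 0.177 and 0.356. ATG2A passed without control library 2 (0.163, limma adjusted p 0.0442). ATG9A shares 38.8% of its exon bases with a gene on its own strand, and WIPI1 28.1% with genes on the other strand, so their reads are uncertain. Against its neighbours on the chromosome ATG9A was lower still (-0.31, limma adjusted p 0.00148).

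The conjugation machinery moved in both directions, with 3 of 7 members higher, 1 lower and 3 not called. With the median change of the neighbouring genes removed, none of the higher members was called, while the lower member kept its call, as given below. ATG4B, the protease that prepares ATG8 proteins for conjugation and later releases them (chromosome 2, 241637213 to 241673857, plus strand), was at 8.55 and 8.99 FPKM in the controls and 12.5 and 11.98 FPKM with ETS1. Its groups were separated by several times the gap between replicates, with a change of 0.44 ± 0.0408 (limma adjusted p 0.00136). ATG16L1, which brings the ATG12-ATG5 conjugate to the membrane (chromosome 2, 233210051 to 233295674, plus strand), went from 3.45 and 3.71 FPKM to 4.79 and 4.78 FPKM, a change of 0.34 ± 0.0461 (limma adjusted p 0.00365). ATG12, the ubiquitin-like protein of that conjugate, was called at 0.21 ± 0.0438 (limma adjusted p 0.0135), and missed the threshold without ETS1 library 1 or ETS1 library 2 (limma adjusted p 0.0631 and 0.0669). In the opposite direction, ATG3, the E2-like enzyme that passes ATG8 proteins to lipid (chromosome 3, 112532509 to 112562046, minus strand), went from 12.4 and 12.3 FPKM to 9.74 and 10.4 FPKM. Both ETS1 values were under both controls, and ATG3 fell by 0.27 on the log2 scale (SE 0.0404, limma adjusted p 0.00467). ATG5 (0.04), the E1-like enzyme ATG7 (-0.08) and the E2-like ATG10 (0.10) were not called, with limma adjusted p-values of 0.508, 0.328 and 0.216.

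In the ATG8 family, the proteins that coat the autophagosome membrane, 2 of the 4 tested members were called, both higher. GABARAP (chromosome 17, 7240014 to 7242770, minus strand) was at 3.23 and 3.14 FPKM in the controls and 4.42 and 3.85 FPKM with ETS1. The ETS1 values were both higher but unlike each other, and the change was 0.29 ± 0.0655 (limma adjusted p 0.0163). The GABARAP call was lost without control library 2 or ETS1 library 1. Its change ran from 0.20 to 0.37 over the alternatives. GABARAP shares 55.7% of its exon bases with other annotated genes, so its reads are uncertain. GABARAPL1 (chromosome 12, 10212458 to 10223130, plus strand) went from 12.96 and 13.9 FPKM to 15.8 and 16.1 FPKM, with no overlap and a change of 0.23 ± 0.0421 (limma adjusted p 0.00866). GABARAPL2 (chromosome 16, 75566351 to 75577881, plus strand), the most abundant of the family per length, was at 39.6 and 38.0 FPKM in the controls and 37.2 and 36.0 FPKM with ETS1 and was not called (-0.08 ± 0.0352, limma adjusted p 0.101). MAP1LC3B, the LC3 gene commonly used to follow autophagy (chromosome 16, 87383995 to 87404779, plus strand), was at 27.4 and 27.0 FPKM in the controls and 27.1 and 25.3 FPKM with ETS1. Its groups overlapped, and the change of -0.06 ± 0.0410 had a limma adjusted p of 0.295. The near-identical gene MAP1LC3B2 was listed at 21.4 and 22.5 FPKM in the controls and 22.8 and 21.2 FPKM with ETS1, so reads may be split between these copies. MAP1LC3A, at 0.0703 and 0.0386 FPKM in the controls and 0.0594 and 0.0602 FPKM with ETS1, was under the filter and not tested.

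Of the cargo receptors, OPTN and SQSTM1 rose and NBR1 was not called. OPTN encodes optineurin, a receptor for damaged mitochondria and bacteria (chromosome 10, 13099449 to 13138308, plus strand), and its levels were 15.5 and 16.0 FPKM in the controls and 24.5 and 24.2 FPKM with ETS1. Both replicate pairs were tight and the groups far apart. The change of 0.60 ± 0.0312 (limma adjusted p 0.000512) was the largest among the members tested on the log2(FPKM + 1) scale. By the ratio of mean FPKM, ULK2 (1.59) and RB1CC1 (1.56) were above OPTN (1.55). SQSTM1, which encodes p62, a receptor that autophagy itself degrades (chromosome 5, 179806398 to 179838078, plus strand), went from 8.50 and 8.77 FPKM to 10.9 and 10.7 FPKM. All SQSTM1 values with ETS1 were above the controls, by 0.29 ± 0.0338 (limma adjusted p 0.00232). SQSTM1 shares 22.0% of its exon bases with genes on the other strand (MGAT4B and MRNIP), so some of its reads are uncertain. NBR1, a relative of p62 (chromosome 17, 43170481 to 43211689, plus strand), was at 20.1 and 20.9 FPKM in the controls and 21.0 and 21.8 FPKM with ETS1, close together in all 4 libraries (0.06 ± 0.0360, limma adjusted p 0.206). Quantile normalization called NBR1 higher (0.12, limma adjusted p 0.0455).

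Lysosomal hydrolases and their activators moved both ways: of 13 tested, 3 were higher, 5 lower and 5 not called. The cathepsins, the proteases of the lysosome, did not move as a block. CTSC, an aminopeptidase that activates serine proteases (chromosome 11, 88293592 to 88337787, minus strand), was at 4.68 and 4.61 FPKM in the controls and 3.38 and 3.27 FPKM with ETS1, and fell by 0.38 on the log2 scale (SE 0.0406, limma adjusted p 0.00183), the deepest fall among the members. The cysteine protease CTSB (chromosome 8, 11842524 to 11869448, minus strand) went from 12.9 and 12.8 FPKM to 10.1 and 9.82 FPKM and fell by 0.34 (SE 0.0316, limma adjusted p 0.00134). For both genes the ETS1 values lay clearly under the controls. CTSZ, a carboxypeptidase, rose by 0.19 (limma adjusted p 0.00640), and CTSA, the protective protein of beta-galactosidase and neuraminidase, fell by 0.13 (limma adjusted p 0.0206). The CTSA call was lost without control library 2, ETS1 library 1 or ETS1 library 2 (limma adjusted p 0.0627 to 0.113). CTSD, the main aspartic protease, was at 22.7 and 24.1 FPKM in the controls and 23.2 and 23.7 FPKM with ETS1, with overlapping groups and a limma adjusted p of 0.946, and CTSH, an aminopeptidase, had a limma adjusted p of 0.281. CTSD and CTSA share 52.7% and 28.5% of their exon bases with other genes, so their reads are uncertain. The member symbol CTSL1 was not listed. Its gene, listed as CTSL and named outside the list, was at 44.3 and 45.2 FPKM in the controls and 43.6 and 40.8 FPKM with ETS1 (-0.08, limma adjusted p 0.130). Against its chromosomal neighbours CTSL was called lower (-0.19, limma adjusted p 0.0102).

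Among the lipid and sugar hydrolases, LIPA rose and GLA fell. LIPA, the lysosomal acid lipase that frees cholesterol from its esters (chromosome 10, 89213569 to 89414557, minus strand), was at 16.4 and 15.3 FPKM in the controls and 20.03 and 21.0 FPKM with ETS1, well apart, with a change of 0.35 ± 0.0470 (limma adjusted p 0.00337). GLA, alpha-galactosidase A, the enzyme deficient in Fabry disease (chromosome X, 101397803 to 101408012, minus strand), was far more abundant per length, at 66.8 and 69.4 FPKM against 57.2 and 53.9 FPKM, and fell by 0.29 (SE 0.0407, limma adjusted p 0.00390). Under quantile normalization the GLA change was -0.14 (limma adjusted p 0.0342). HEXA, the alpha subunit of hexosaminidase, was called lower by a small margin (-0.15, limma adjusted p 0.0389), and leaving out any of the 4 libraries lost the call (limma adjusted p 0.0671 to 0.203). HEXA shares 16.3% of its exon bases with other genes. PSAP, the precursor of the saposin activators and the most abundant member per length, rose from 91.5 and 88.7 FPKM to 103 and 99.1 FPKM (0.16 ± 0.0333, limma adjusted p 0.0119). The PSAP change was 0.32 under quantile normalization, and it missed the threshold without ETS1 library 1 (limma adjusted p 0.0692). GAA, the glycogen-degrading glucosidase, GUSB, beta-glucuronidase, and GRN, progranulin, were not called, with changes of -0.04, -0.10 and -0.06. GUSB is called in the authors' deposited table, with a log2 fold change of -0.12 and an adjusted p of 0.0380, and by voom on recovered reads (limma adjusted p 0.0421).

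Of the lysosomal membrane and lipid transfer proteins, 1 of 5 was called. LAMP2, a heavily glycosylated membrane protein needed for autophagosomes to mature (chromosome X, 120427827 to 120469365, minus strand), was at 21.4 and 20.3 FPKM in the controls and 27.0 and 28.6 FPKM with ETS1. Its ETS1 values were both far above the controls, a change of 0.40 ± 0.0432 (limma adjusted p 0.00198). LAMP1, the related protein whose promoter holds the 5 CLEAR places (chromosome 13, 113297241 to 113323672, plus strand), was at 10.2 and 10.8 FPKM in the controls and 11.1 and 11.6 FPKM with ETS1, and was not called (0.11 ± 0.0425, limma adjusted p 0.0847), though voom on recovered reads called it higher (limma adjusted p 0.0388). Whether LAMP2 and LAMP1 differed in their change was not tested. The cholesterol exporters NPC1 (0.07) and NPC2 (0.06) and the calcium channel MCOLN1 (-0.01) were not called, with limma adjusted p-values of 0.243, 0.156 and 0.857. NPC2 was called higher under quantile normalization (0.13, limma adjusted p 0.0189).

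Of the 4 V-ATPase members, 1 was called higher, 2 lower and 1 neither, all with small changes. ATP6V1A, the catalytic subunit, was at 16.7 and 16.4 FPKM in the controls and 18.4 and 19.0 FPKM with ETS1 and was called higher (0.17 ± 0.0314, limma adjusted p 0.00889), but not without ETS1 library 2 (limma adjusted p 0.0666). The accessory subunit ATP6AP1 fell by 0.13 (limma adjusted p 0.0209) and lost the call without control library 1 or ETS1 library 2 (limma adjusted p 0.0587 and 0.122). Under quantile normalization its sign turned, to 0.0034, and against its chromosomal neighbours it was -0.23. ATP6V1H, a regulatory subunit, fell by 0.13 (limma adjusted p 0.0451) and lost the call without any 1 of the 4 libraries (limma adjusted p 0.0637 to 0.239). ATP6V0D1, which joins the membrane and cytosolic parts of the pump, was not called (-0.05, limma adjusted p 0.247), but was called lower under quantile normalization (-0.11, limma adjusted p 0.0454).

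In these libraries whole stretches of chromosome were higher or lower together, so each member was set beside its neighbours, the tested genes up to 50 on each side. ATG4B and ATG16L1 both lie near the end of the long arm of chromosome 2, where the neighbours had a median log2 change of 0.40 around each gene. With that median taken away, ATG4B was at 0.04 (limma adjusted p 0.435) and ATG16L1 at -0.06 (limma adjusted p 0.308). CTSB lies on chromosome 8 among neighbours with a median of -0.32, and had -0.02 left (limma adjusted p 0.589). These 3 genes therefore moved by about as much as the genes around them. The same held for MITF (0.02 left, limma adjusted p 0.809), ATP6V1A (-0.02, 0.648), ATG12 (0.02, 0.752) and GABARAPL1 (0.04, 0.438). UVRAG at 0.08 and HEXA at 0.08 also lost the call (limma adjusted p 0.126 and 0.174), HEXA with its sign turned.

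Other members moved apart from the median of their neighbours. The fit takes that median as known, so its p-values, here and above, leave out the spread of the neighbours' own changes. RB1CC1 lies on chromosome 8, where the neighbours had a median of -0.00596, and kept 0.60 (limma adjusted p 0.000524). OPTN kept 0.53, ULK2 0.35, BECN1 0.33, SQSTM1 0.28, ULK1 0.28, LIPA 0.27 and LAMP2 0.26, with limma adjusted p-values of at most 0.00475. Against their neighbours CTSC (-0.49), ATG3 (-0.47) and GLA (-0.42) stood lower than in the plain comparison, since the genes around them were on balance higher. CTSH, not called before, was 0.28 above neighbours with a median of -0.23 on chromosome 15 (limma adjusted p 0.00171), and TFE3 was -0.12 (limma adjusted p 0.0160). By this measure 11 of the 18 higher members and 7 of the 9 lower ones kept their call. In all 20 members (39.2%) were called, against 59.8% of the 12552 genes tested this way.

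**Figure D3:**
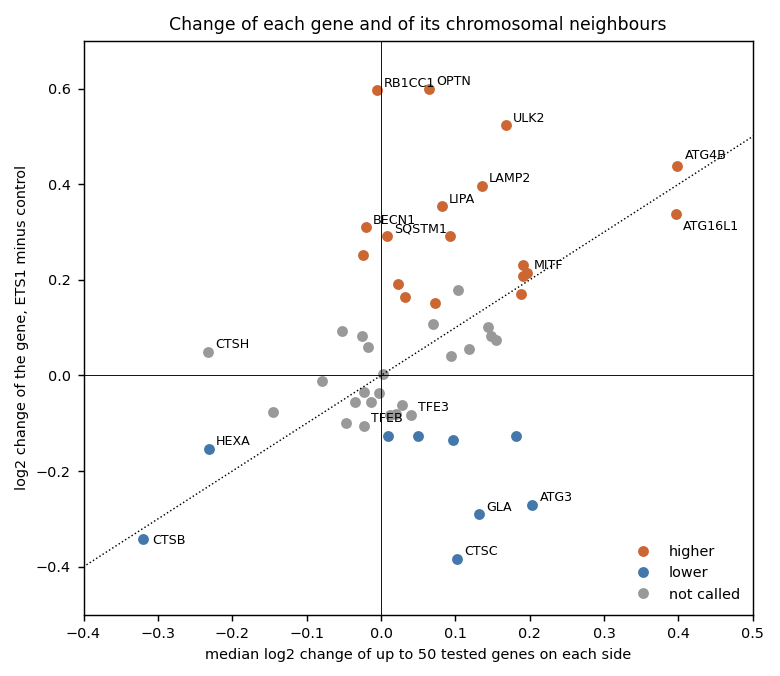
Log2 change of each tested member (vertical axis) against the median log2 change of up to 50 tested genes on each side of it on the chromosome (horizontal axis), coloured by the limma call. On the dotted line a gene changes as much as its neighbours. ATG4B, ATG16L1, MITF and CTSB lie close to the line, while RB1CC1, OPTN and ULK2 lie above it and CTSC, ATG3 and GLA below it.

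The other genes of these pathways were compared in 9 lists of 217 symbols, of which 194 were tested. Of these 77 (39.7%) were higher and 47 (24.2%) lower, beside 30.7% and 28.4% of all genes tested, and their median log2 change was 0.064. Autophagosome formation genes outside the members had 11 of 22 higher and 3 lower. In that list MAP1LC3C, an LC3 gene of low abundance, was at 0.482 and 0.575 FPKM in the controls and 1.36 and 1.86 FPKM with ETS1 (0.76 ± 0.112, limma adjusted p 0.00447). ULK3, a kinase related to ULK1, went from 70.1 and 70.8 FPKM to 42.3 and 42.3 FPKM, opposite in direction to ULK1 and ULK2, with a change of -0.72 ± 0.0249 (limma adjusted p 0.000423) among neighbours with a median of -0.22. ZFYVE1, a marker of the membrane sites where autophagosomes start, rose by 0.39 (limma adjusted p 0.00258).

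Fusion of autophagosomes with lysosomes had 7 of 18 genes higher and 4 lower, and held the largest change of all 9 lists. VAMP8, the SNARE protein that pairs with syntaxin 17 in this fusion (chromosome 2, 85561562 to 85582031, plus strand), was at 3.66 and 3.03 FPKM in the controls and 14.2 and 14.2 FPKM with ETS1. The ETS1 values of VAMP8 were level with each other and 4.25 times the control mean, a change of 1.81 ± 0.0751 (limma adjusted p 0.000439), while its neighbours had a median of 0.05. STX17, syntaxin 17 itself, rose by 0.45, and VPS41, a subunit of the HOPS tethering complex, by 0.35 (limma adjusted p 0.00139 and 0.00510). Selective autophagy receptors outside the members had 6 of 15 higher and 2 lower. CALCOCO1 (0.50), the mitochondrial receptor BNIP3 (0.44) and the endoplasmic reticulum receptor FAM134B (0.41) rose most, with limma adjusted p-values of at most 0.00632.

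Of the V-ATPase subunits outside the members, 9 of 17 were lower and 4 higher, with a median log2 change of -0.21. ATP6V0E2 fell by 0.53 and ATP6V1C2 by 0.46, and TCIRG1, an isoform of the large membrane subunit, rose by 0.55 (limma adjusted p at most 0.00378). Other lysosomal hydrolases had 20 of 41 higher and 8 lower. In this list NAAA, an amidase of N-acylethanolamines, fell by 0.83, and the chitobiase CTBS (0.54) and the cathepsin CTSV (0.49) rose (limma adjusted p at most 0.00703). The authors' deposited table gives NAAA a log2 fold change of -1.31. Other membrane proteins had 13 of 34 higher and 9 lower, among them the haem transporter SLC48A1 (-0.56), the channel MCOLN2 (-0.42) and OSTM1, partner of a chloride transporter (0.41). Sorting by mannose 6-phosphate had 4 of 13 higher and 2 lower, with the receptor M6PR at 0.31, the adaptor subunit AP1G1 at 0.24 and the tag-uncovering enzyme NAGPA at -0.27. Against their chromosomal neighbours M6PR kept 0.12, CTBS 0.35 and, from the nutrient sensing list, FNIP1 0.31. NAGPA missed the threshold without ETS1 library 2 (limma adjusted p 0.0505). Nutrient sensing through mTORC1 and AMPK had 11 of 32 higher and 9 lower, led by PRKAA2 (0.52), a catalytic AMPK subunit, FNIP1 (0.49) and the Rag GTPase RRAGC (0.39). Of the cystatins, inhibitors of cathepsins, 2 of 8 were tested, and CST3 rose by 0.13 and CSTB fell by 0.20 (limma adjusted p 0.0112 and 0.00290). Without ETS1 library 1 or 2 CST3 was not called (limma adjusted p 0.0830 and 0.0657). Under quantile normalization it was at 0.24, and CSTB was not called (-0.03, limma adjusted p 0.315). Counts over the 9 lists fell when either ETS1 library was left out, and so did the counts over all genes tested.

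**Figure D4:**
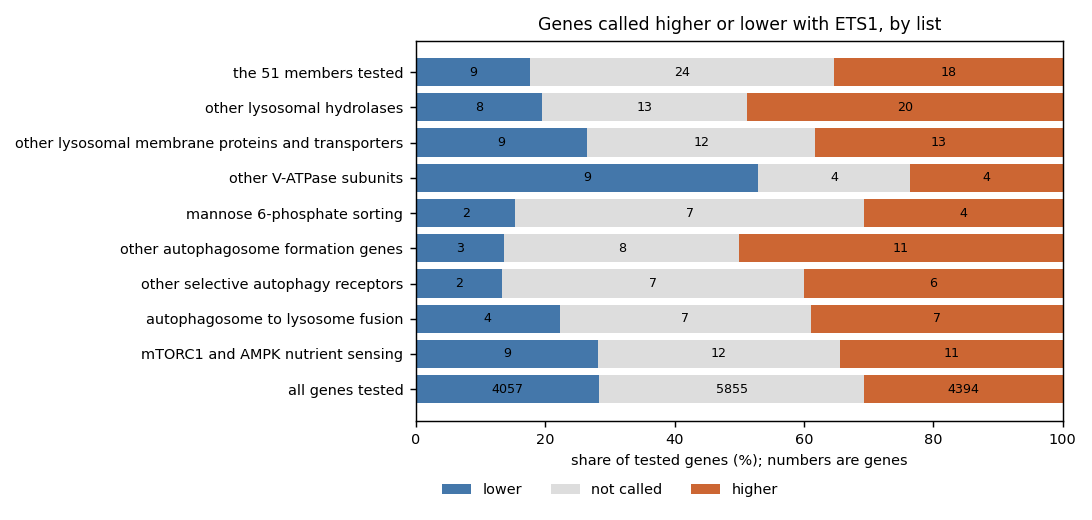
Share of tested genes called lower (blue), not called (grey) and higher (orange) by limma for all genes tested, the members and each pathway list but the cystatins, with the number of genes in each bar segment. Of the bars shown, only that of the V-ATPase list has a lower segment larger than its higher one.

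The authors' deposited table, a separate fit to the counts, also calls 27 of the 51 tested members at its adjusted p under 0.05, beside 51.2% of the 15683 genes it adjusts. Of the members, 17 were higher and 9 lower in both, UVRAG was called by limma alone and GUSB in the authors' deposited table alone. For OPTN that table gives a log2 fold change of 0.60, for RB1CC1 0.61, for ULK2 0.64 and for CTSC -0.49.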

How the data were processed

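RNA of TE5 cells was sequenced in 4 libraries, 2 with ETS1 and 2 controls. The authors deposited FPKM values per gene, normalized to gene length and library size, per the file headers. Their comparison was deposited as well, and in it the authors give a mean normalized count (a signal over the 4 libraries), a log2 fold change with its standard error, and a p-value with an adjusted p-value per gene, per the file headers. HISAT2, HTSeq, DESeq2 and the build hg38 (GRCh38) are named in the submitters' processing notes, without versions, and the use of strand is not given in the sources used here. Raw counts were not used here. Reads recovered from the deposited FPKM and mean normalized counts were within 0.05 of a whole number for 99.7% of values, and a tested member had at least 296 reads in each library.

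Genes whose FPKM averaged at least 1 across the libraries were taken as log2(FPKM + 1) and fitted with limma 3.58.1 in R 4.3.3, with a group term, an intensity trend (2 residual and 2.84 prior degrees of freedom) and two-sided tests. The steps were tested on simulated data. Recovered depth (40356723 to 57269984 reads) counts only genes in the authors' comparison. Positions are from GENCODE 29, matched by name for 87.9% of tested genes, 1209 of all names through an older symbol. Local medians use 50 tested genes on each side.

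The members and the other lists were chosen with earlier results of these data known. Values per library are given for members called with an absolute log2 change of at least 0.3, for every MiT/TFE factor, ATG8 gene and cargo receptor and for members under the filter, and at most 3 called genes are named from each pathway list. Genes described outside that rule were chosen after their values were seen. Alternatives were another pseudocount, filter, scaling, variance prior or block, removal of the local median, the authors' values, leaving out each library and, chosen after seeing the data, limma's voom on recovered reads.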

Additional observations from a re-analysis of the deposited data

How the results depend on the processing

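Of the members, 9 of the 18 called higher and 3 of the 9 called lower kept their direction and call under every alternative that tested them (13 or 14 each). Of the 24 not called, 15 were not called under any, but 11 of these 15 changed sign at least once. Those that leave out a library gave 13 to 18 higher and 4 to 6 lower members, 2845 to 3962 genes higher and 2945 to 3720 lower over all genes, 47 to 73 higher and 29 to 39 lower in the pathway lists, and a median log2 change of the members of 0.037 to 0.069. With an arm left at 1 library, that library is assumed to vary like the other group. Lower members numbered 5 with no filter on low values (3238 lower of 35055 genes) and 5 with the replicate number as a block (3571 of 14306). The members' median was 0.050 with a stricter filter (mean FPKM 5 or more), 0.041 under median-of-ratios scaling, 0.038 in the authors' deposited table and 0.0014 with the local chromosomal median removed, and the filter at 5 left 2562 genes higher. Among called members that removal turned the sign of HEXA (0.078), ATP6V1A (-0.018) and ATG16L1 (-0.059), and quantile normalization that of ATP6AP1 (0.0034). Among members not called they turned the sign of 7 and 5. The cause was not tested. Deviations of same-numbered libraries had a correlation of -0.0456 over the genes tested. With only 2 libraries per group this cannot show whether the numbers pair the samples, which the labels do not say. With the number as a block 16 members were higher and 5 lower, beside 3712 and 3571 of the 14306 genes. Of the 29 other genes named, 25 kept their call, or stayed uncalled, under all their alternatives. Among these, C12orf44 was never called and its change ran from -0.064 to 0.010. A tested member had at least 296 reads in each library, and MAP1LC3A was under the filter.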
